A study of Mus musculus with 15 samples.

Results

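The genes described here encode the nuclear subunits of mitochondrial respiratory complexes I, III and IV and of ATP synthase. They were chosen by name: every gene whose symbol starts with Ndufa, Ndufb, Ndufc, Ndufs, Ndufv, Uqcr, Cox4, Cox5, Cox6, Cox7, Cox8 or Atp5 and that had a probe set of its own above the 40th percentile of its array on at least 3 arrays. By this rule 79 of the 9528 genes tested were members. They comprised 6 core subunits, 27 accessory subunits and 5 assembly factors of complex I, 8 subunits of complex III, 16 of complex IV and 17 of ATP synthase. Of these members, 72 were above the percentile on all 15 arrays. The other 7, which are Cox4i2, Cox6a2, Cox6b2, Cox7a1, Cox7c, Cox8c and Ndufb1, passed on 3 to 14 arrays and lie close to background on the rest. Cox8b, the muscle isoform of subunit 8, had a probe set but was not above the percentile on enough arrays. Subunits such as Ndufb4, Ndufs6 and Ndufa11 had only probe sets that the annotation shares between genes, and Cox7b had no probe set listed, so they were not analysed here.

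The samples were livers of mice aged 16 months, hybridised 1 per array. Mdr2, now called Abcb4, is a hepatocyte membrane protein that carries phosphatidylcholine to the bile. The 6 tumours and the 6 non-tumorous livers, called knockout livers below, came from homozygous Mdr2-KO mice. The 3 controls were livers of Mdr2-KO heterozygotes, which carry the knockout on a single copy of the gene. Strain and sex were not given in the labels, and no homozygous wild-type liver was among the samples. Tumours and livers that begin with the same number, such as tumours 5-1 and 5-2 and knockout liver 5, were from the same animal per the labels, and knockout livers 1 and 2 had no matched tumour. The study asked how gene expression differs between tumours, the surrounding knockout liver and control liver.

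The respiratory chain passes electrons from NADH through complex I, and from succinate through complex II, to ubiquinone, then through complex III and cytochrome c to complex IV, which reduces oxygen. Complexes I, III and IV pump protons across the inner mitochondrial membrane, and ATP synthase uses the returning protons to make ATP. Most subunits are encoded in the nucleus, and a few of the central ones are encoded in mitochondrial DNA. The liver is rich in mitochondria and depends on them for gluconeogenesis, urea synthesis and fatty acid oxidation. The transcription factors NRF1 and GABPA, an ETS family factor, are known to bind promoters of many nuclear respiratory genes.

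Promoter windows of 300 bases, most of it before the annotated start and a short stretch after it, were found in RefSeq (GRCm38.p6) for 66 of the 79 members. The NRF1 motif (GCGCA, any base, GCGC), searched on both strands like the others, was present in 14 of these 66 genes (21.2%), against 11.1% of 7707 tested genes and 5.19% of 27025 genes with a window. The ETS motif CCGGAAG was present in 16 members (24.2%), against 18.9% of tested genes and 9.93% of all genes. The CCAAT box, which NF-Y binds, was present in 26 members (39.4%), close to the 42.4% of tested genes. The ESRRA motif TCAAGGTCA was present in 1 member. By group, the NRF1 motif was in 6 of 15 ATP synthase genes, 4 of 25 accessory subunits and 0 of 5 core subunits of complex I, 2 of 5 assembly factors, 1 of 5 genes of complex III and 1 of 11 of complex IV. Both the NRF1 and the ETS motif were present in 3 members, which are Atp5h (peripheral stalk subunit d), Atp5k (membrane subunit e) and Cox6a1 (the liver isoform of subunit 6a). Their windows are shown because they carry both motifs, and that of Ndufs5 because it was the only member called in the comparisons below as fitted over all samples. Capitals mark matches to the NRF1 or the ETS motif on either strand, so that an ETS match on the opposite strand reads CTTCCGG. A match describes the letters only and is no measure of binding.
Atp5h, chr11:115419870-115420169, strand -: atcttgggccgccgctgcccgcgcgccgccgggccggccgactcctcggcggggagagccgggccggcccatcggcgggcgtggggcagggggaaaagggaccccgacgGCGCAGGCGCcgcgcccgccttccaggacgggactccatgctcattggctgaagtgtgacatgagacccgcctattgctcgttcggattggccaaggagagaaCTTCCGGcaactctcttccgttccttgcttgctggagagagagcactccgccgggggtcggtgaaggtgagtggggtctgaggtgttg
Atp5k, chr5:108434350-108434649, strand -: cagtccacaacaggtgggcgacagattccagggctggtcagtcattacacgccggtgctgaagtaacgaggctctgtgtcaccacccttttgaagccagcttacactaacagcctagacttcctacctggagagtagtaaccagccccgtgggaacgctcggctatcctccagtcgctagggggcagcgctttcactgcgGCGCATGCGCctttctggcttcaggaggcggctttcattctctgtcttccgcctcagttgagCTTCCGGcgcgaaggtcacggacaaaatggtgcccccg
Cox6a1, chr5:115348909-115349208, strand -: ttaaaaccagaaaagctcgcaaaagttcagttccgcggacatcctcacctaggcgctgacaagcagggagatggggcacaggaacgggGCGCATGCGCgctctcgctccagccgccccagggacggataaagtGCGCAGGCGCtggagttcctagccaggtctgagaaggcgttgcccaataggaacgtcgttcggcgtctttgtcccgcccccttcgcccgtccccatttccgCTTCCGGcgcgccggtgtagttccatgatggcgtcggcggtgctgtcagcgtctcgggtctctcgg
Ndufs5, chr4:123718137-123718436, strand -: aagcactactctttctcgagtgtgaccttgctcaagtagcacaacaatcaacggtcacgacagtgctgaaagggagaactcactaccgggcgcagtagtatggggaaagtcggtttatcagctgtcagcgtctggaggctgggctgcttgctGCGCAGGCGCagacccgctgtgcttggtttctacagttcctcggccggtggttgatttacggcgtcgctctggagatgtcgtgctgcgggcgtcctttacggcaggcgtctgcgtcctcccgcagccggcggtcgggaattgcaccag

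Values are MAS5 signals, intensities on a linear scale, and changes are differences of log2(signal + 9.1), fitted with limma over all 9528 genes and adjusted by the Benjamini-Hochberg method. A gene was called at an adjusted p under 0.05. Median signals of the 15 arrays lay between 35.8 and 51.2, and the number of arrays limits the precision. Abcb4 had signals of 779 to 1006 in the controls, of 177 to 306 in the knockout livers and of 123 to 681 in the tumours. Albumin, a defining hepatocyte marker, had signals of 18671 to 20113 in the controls, 14053 to 18457 in the knockout livers and 13290 to 18314 in the tumours. The actin 3′ to 5′ ratio, a measure of RNA integrity, lay between 2.55 and 3.37 in the controls, 1.74 and 2.74 in the knockout livers and 1.51 and 2.06 in the tumours, so that the ranges of controls and tumours did not overlap.

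None of the 79 genes was called between knockout livers and controls, where 1.68% of all genes tested were called (160 of 9528). At an unadjusted p under 0.05 there were 11 members (13.9%), against 15.7% of all genes. The members' median log2 change was -0.12, against -0.02 for all genes and -0.13 for the 454 genes at least as bright as the median member. Values lay below 0 for 53 of the 79 members (67.1%), against 67.8% of those bright genes. For 70 members the 95% confidence interval of the change stayed within 2-fold in either direction. The samples are tissue pieces of mixed cell types, so fewer cells of a type and less RNA per cell cannot be told apart. In 12 members every knockout liver lay below every control, against 6.78% of all genes, and in 1 member, Ndufa2, every knockout liver lay above every control, against 8.01%. Among the bright genes the number with all knockout livers below all controls was 89 of 454. The actin ratio lay at 1.74 to 2.74 in the knockout livers against 2.55 to 3.37 in the controls, and its part in these values was not tested.

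The 12 members without overlap comprised 2 core and 4 accessory subunits of complex I, 3 genes of ATP synthase, 2 of complex III and 1 of complex IV. Ndufv2, a core subunit of the electron input arm, had signals of 2023, 1926 and 1855 in the controls and of 1398, 1384, 1186, 1458, 1442 and 1580 in knockout livers 1 to 6. All 6 knockout livers lay below all 3 controls, and the change of -0.46 ± 0.16 (SE) on the log2 scale was not called (limma adjusted p = 0.18). Ndufv3, an accessory subunit of the same arm, had signals of 1473, 1450 and 1167 in the controls and of 939, 856, 808, 950, 857 and 628 in the knockout livers. These groups did not overlap either, and the log2 change was -0.70 ± 0.22 (limma adjusted p = 0.13). In the tumours Ndufv3 spanned 702 to 1572 and overlapped both groups. Ndufs8, a core subunit with a pair of iron-sulfur clusters, had a median of 2742 in the controls and of 2143 in the knockout livers, with a log2 change of -0.31 ± 0.15 (limma adjusted p = 0.35). Ndufa2, an accessory subunit of the matrix arm, lay the other way, at 906 to 1192 in the controls and 1219 to 1515 in the knockout livers, with a log2 change of 0.43 ± 0.26 (limma adjusted p = 0.45).

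In ATP synthase, 14 of 17 genes had a log2 change below 0 in knockout livers, and 3 of them did not overlap with the controls (17.6%). Of the bright genes 67.8% were below 0 and 19.6% lay without overlap below the controls, so the latter share was near theirs. Atp5md, a small membrane subunit also known as Usmg5 or DAPIT, had signals of 2479, 1677 and 1855 in the controls and of 961, 1217, 1381, 1220, 1215 and 1240 in knockout livers 1 to 6. Every knockout liver lay below every control, and the log2 change was -0.72 ± 0.24 (limma adjusted p = 0.14). Atp5k had signals of 2248, 2220 and 2490 in the controls and of 1635, 1505, 1108, 1730, 1835 and 1610 in the knockout livers, again without overlap, with a log2 change of -0.58 ± 0.25 (limma adjusted p = 0.26). Atp5h spanned 2330 to 3246 in the controls and 1609 to 2124 in the knockout livers. Its other probe set gave a log2 change of -0.05 where the brighter gave -0.56, so the probe sets of Atp5h disagree. The alpha and beta subunits of the catalytic F1 head, Atp5a1 and Atp5b, had log2 changes of -0.02 and -0.09.

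In complex III, 6 of 8 genes had a log2 change below 0. Uqcrb, a small subunit, had signals of 10260, 13329 and 12212 in the controls and of 8243, 8664, 8141, 8698, 9893 and 8795 in the knockout livers, with a log2 change of -0.44 ± 0.19 (limma adjusted p = 0.25). The second probe set of Uqcrb gave -0.07, less than the brighter one. Uqcrc2, core protein 2, had the highest value of the complex at 0.10 ± 0.29. In complex IV, which includes the dim Cox4i2, Cox6a2, Cox6b2, Cox7a1, Cox7c and Cox8c, 8 genes lay above 0 and 8 below. Its lowest value was that of the dim Cox4i2, the lung isoform of subunit 4, at -0.71 ± 0.27 (limma adjusted p = 0.21). Cox4i2 had signals of 39.3 to 42.4 in the controls and of 10.3 to 31.1 in the knockout livers, without overlap. The 5 assembly factors of complex I had log2 changes between -0.04 (Ndufaf4) and 0.27 (Ndufaf5). The call count of 0 was not stable to the samples in the fit. With only the knockout livers and controls fitted, 8 members were called: Atp5h, Atp5k, Atp5md, Ndufa2, Ndufa7, Ndufv2, Ndufv3 and Uqcrb. In that fit 10.4% of all genes were called, so 8 of 79 is close to the general rate. With tumours 3 and 5-1 left out of the fit, an alternative chosen after seeing the data, 5 were called, against 4.48% of all genes: Atp5h, Atp5k, Atp5md, Ndufv2 and Ndufv3.

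**Figure D1:**
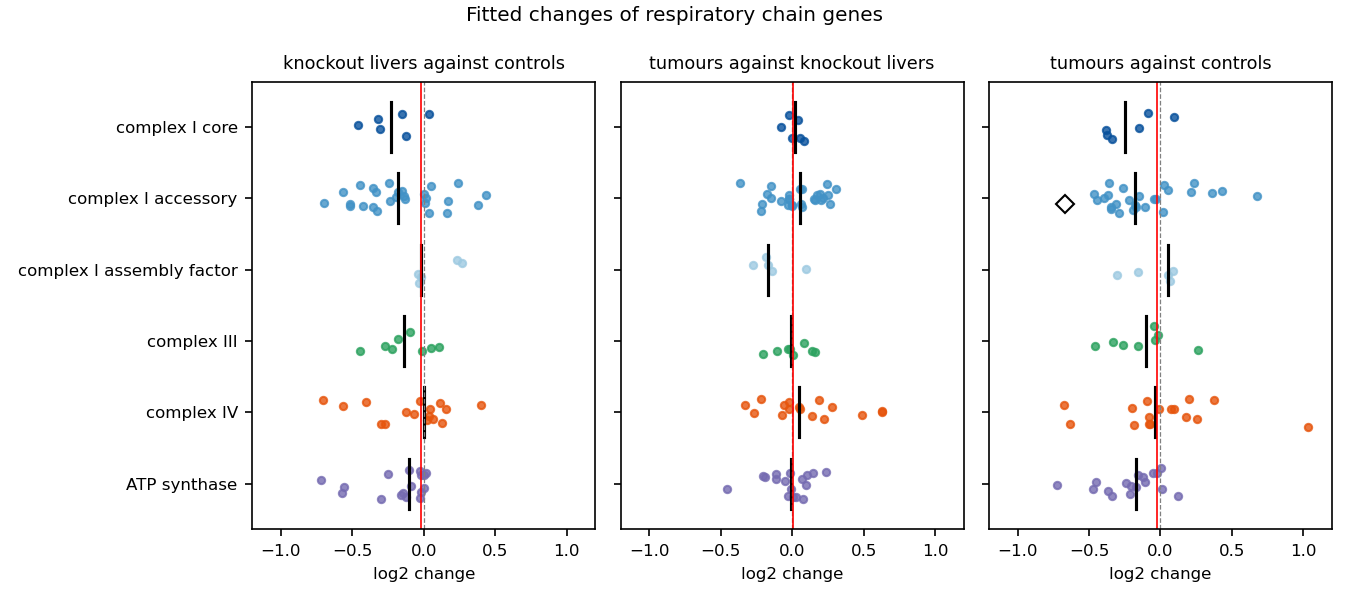
Fitted log2 changes (x axis) of the 79 genes by complex (rows) in the 3 comparisons; each point is a gene, black bars are medians of a complex, red lines the median of all 9528 genes, and the open diamond is the only called gene, Ndufs5. Vertical position within a row has no meaning. Most points lie within 0.5 of 0, and the medians of complex I core and accessory subunits lie at -0.23 and -0.18 in knockout livers against controls.

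No member was called between tumours and knockout livers, where 0.136% of all genes were called (13 of 9528). At an unadjusted p under 0.05 there were 3 members (3.80%), against 10.3% of all genes, and 40 members had a log2 change above 0 and 39 below. Their median was 0.00, against 0.01 for all genes and -0.14 for the bright genes. For 75 of 79 members the 95% interval stayed within 2-fold. In 1 member, Atp5a1, every tumour lay below every knockout liver, against 0.567% of all genes, and in none did every tumour lie above (0.126% of all genes).

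Atp5a1, which encodes the F1 alpha subunit, had signals of 3593, 4189 and 3653 in the controls and of 3246, 3861, 4459, 3513, 3817 and 3661 in knockout livers 1 to 6. In tumours 3, 4, 5-1, 5-2, 6-1 and 6-2 they were 2592, 2869, 2026, 2971, 3043 and 3044. Every tumour lay below all 9 other samples, and controls and knockout livers overlapped. The log2 change of tumours was -0.45 ± 0.13 against knockout livers (limma adjusted p = 0.22) and -0.48 ± 0.16 against controls (limma adjusted p = 0.079), neither of which was called. A second probe set of Atp5a1 gave -0.22 and -0.26, and another, with a mean signal of 42.8, gave -0.05 and 0.26. The other F1 subunits overlapped between the groups. Atp5c1, the gamma subunit, was at 3162, 2720, 2879 and 2922 in tumours 4, 5-1, 5-2 and 6-1, below all 9 controls and knockout livers. Tumour 4 was nearly level with knockout liver 1, at 3163. Tumours 3 and 6-2 were at 4967 and 3217. Atp5e, the epsilon subunit, was at 1453, 1340, 1364 and 1432 in tumours 4, 5-1, 5-2 and 6-1, also below all 9 controls and knockout livers. Atp5b spanned 2625 to 4646 in the tumours and 2612 to 4269 in the knockout livers, and Atp5d, the delta subunit, 2209 to 3395 and 2307 to 3059.

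Other members with large differences between tumours and knockout livers were not called either. In complex IV the largest rise was that of the dim Cox7a1, with a log2 change of 0.63, and the largest fall that of Cox4i1, at -0.33. The rise of Cox4i2 was close to that of Cox7a1. Cox4i2 had signals of 26.4 to 50.1 in the tumours and 10.3 to 31.1 in the knockout livers, with a log2 change of 0.63 ± 0.23 (limma adjusted p = 0.32). Ndufa10, an accessory subunit related to nucleoside kinases, had a log2 change of 0.31 ± 0.19 (limma adjusted p = 0.60) and reached 1064 in tumour 3. Uqcr10, a small subunit of complex III, had a log2 change of -0.20 ± 0.16 (limma adjusted p = 0.72). Tumours 4, 5-1, 5-2 and 6-1, at 1308, 1202, 1583 and 1330, lay below the lowest knockout liver at 1604, while tumour 3 was at 2473. Ndufaf1, an assembly factor of complex I, had a log2 change of -0.28 ± 0.16 (limma adjusted p = 0.58). Its signals were 92.1 to 112 in the tumours other than tumour 3, below the 118 to 168 of the knockout livers, and 187 in tumour 3.

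Between tumours and controls, Ndufs5 was the only one of the 79 members called, where 6.87% of all genes were called (655 of 9528). The members' median log2 change was -0.15, against -0.02 for all genes and -0.26 for the bright genes, of which 53 were called lower and 17 higher. At an unadjusted p under 0.05 there were 13 members (16.5%), against 22.4% of all genes. For 70 members the 95% interval stayed within 2-fold. Ndufs5, Atp5a1 and Cox4i1 had every tumour below every control, against 6.13% of all genes, and no member had every tumour above every control (5.30% of all genes).

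Ndufs5 encodes an accessory subunit on the intermembrane side of complex I. Its signals were 143, 177 and 165 in the controls, 103, 93.8, 143, 137, 100.9 and 122 in the knockout livers, and 125, 80.7, 71.2, 103, 118 and 98.8 in the tumours. Every tumour lay below every control, and the knockout livers lay between, overlapping both. The gene fell by 0.67 ± 0.19 on the log2 scale in tumours against controls (limma adjusted p = 0.046), while knockout livers against controls gave -0.45 ± 0.19 (limma adjusted p = 0.26). This probe set was dim, with a mean signal of 119. A brighter probe set, which the annotation shares between Ndufs5 and the pseudogene Ndufs5-ps, had signals of 760 ± 23.5 (SD, n = 3) in the controls, 647 ± 37.8 (n = 6) in the knockout livers and 879 ± 249 (n = 6) in the tumours. Its tumour mean lay above its control mean, the opposite of the dim probe set. The call was also lost when any 1 control, any 1 knockout liver or tumour 4, 5-1, 5-2 or 6-2 was left out, and when the actin ratio was a covariate (log2 change -0.34). Without tumour 3 there were 6 called members of 79, where 7.89% of all genes were called in that fit; they were Atp5h, Ndufb11, Ndufs5, Ndufs8, Ndufv2 and Uqcrb.

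Cox4i1, the main isoform of subunit 4 of cytochrome c oxidase, had signals of 3632, 4559 and 4026 in the controls and of 3030, 3385, 1522, 3129, 3058 and 2161 in tumours 3, 4, 5-1, 5-2, 6-1 and 6-2. All 6 tumours lay below all controls, and tumours 5-1 and 6-2 were the lowest. The log2 change was -0.63 ± 0.22 (limma adjusted p = 0.099). Knockout livers spanned 2496 to 3915 and overlapped both groups. Atp5md had the lowest fitted value of ATP synthase, -0.73 ± 0.24 (limma adjusted p = 0.074), and it was called in the tumours when tumour 5-2 or tumour 6-2 was left out. Of the 60 other probe sets of the members, 1 was called in tumours against controls, in a separate fit of all kept probe sets. It was a second probe set of Ndufa7, an accessory subunit of the matrix arm with 5 kept probe sets. The share of all probe sets called in that fit is not given here, so this call cannot be set against a general rate. Over the 40 members with more than 1 kept probe set, 44 of 60 other probe sets had the sign of the brightest in tumours against controls, 42 in tumours against knockout livers and 37 in knockout livers against controls.

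**Figure D2:**
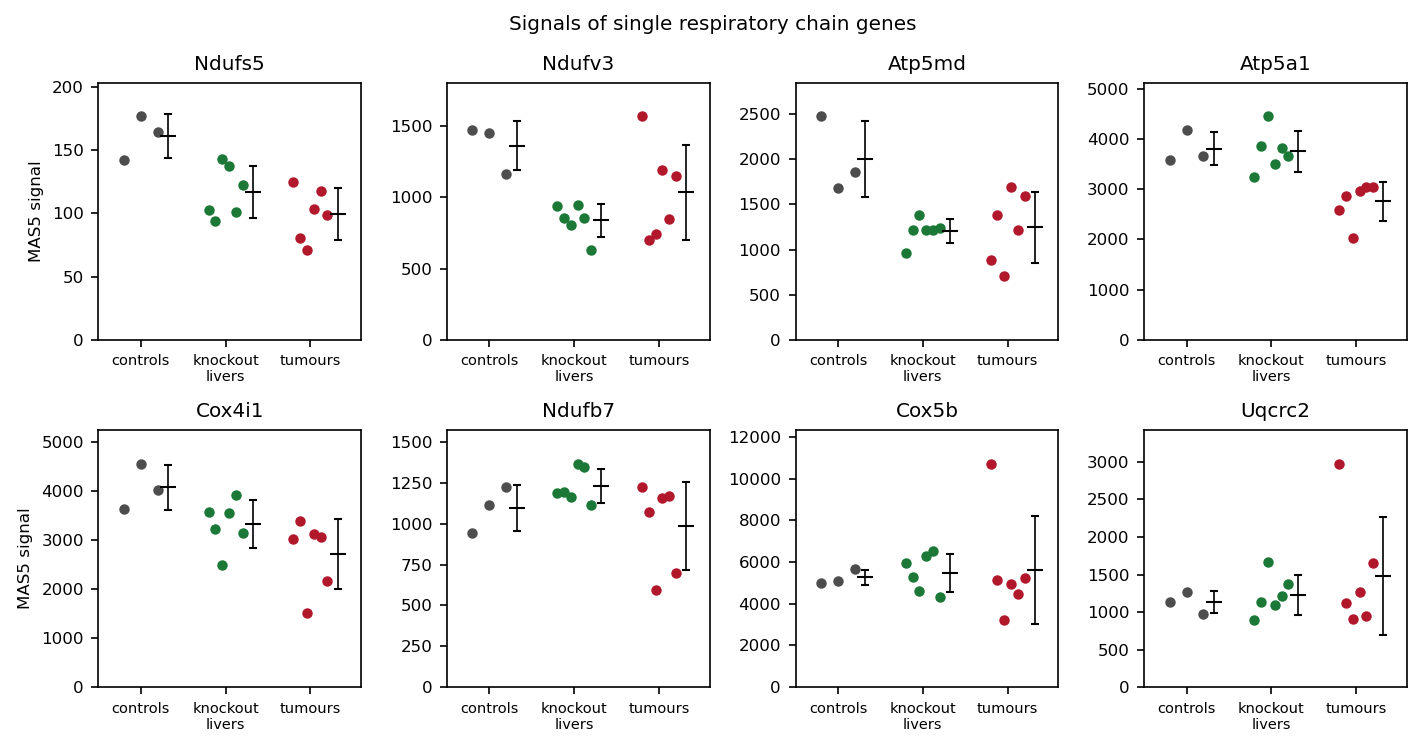
MAS5 signals (y axis, linear, from 0) of 8 genes in the 3 controls, 6 knockout livers and 6 tumours; points are samples, in the order of their numbers, and the bar beside each group is its mean ± SD. Ndufs5, Atp5a1 and Cox4i1 have every tumour below every control; Cox5b and Uqcrc2 have a single high tumour, tumour 3, at 10721 and 2978.

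The tumours varied more among themselves than the knockout livers did. The SD of a member's log2 signal was larger over tumours than over knockout livers in 73 of 79 genes (92.4%), against 73.3% of all genes. The median SD of members was 0.40 in tumours, 0.15 in knockout livers and 0.16 in controls, against 0.43, 0.29 and 0.25 for all genes. The members' SD in tumours was thus not above that of all genes, and their SDs in the other groups were below it. As a mean over the 79 genes, the log2 difference from the mean of the controls was -0.04, 0.04 and 0.00 in the 3 controls and between -0.22 and -0.02 in the 6 knockout livers. In tumours 3, 4, 5-1, 5-2, 6-1 and 6-2 it was 0.35, -0.18, -0.52, -0.08, -0.23 and -0.04. Tumour 3 thus lay above every other sample and tumour 5-1 below every other sample. Both were singled out after their values were seen, so their values are descriptions without a test. With quantile normalization these 2 tumours were at 0.39 and -0.40, and with arrays centred on their medians at 0.34 and -0.72. Tumour 4, in which the median of all genes lay at -0.13, was at -0.17 with quantile normalization and at 0.04 with centring, and tumours 5-2 and 6-2 were at 0.04 and 0.01 with quantile normalization.

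**Figure D3:**
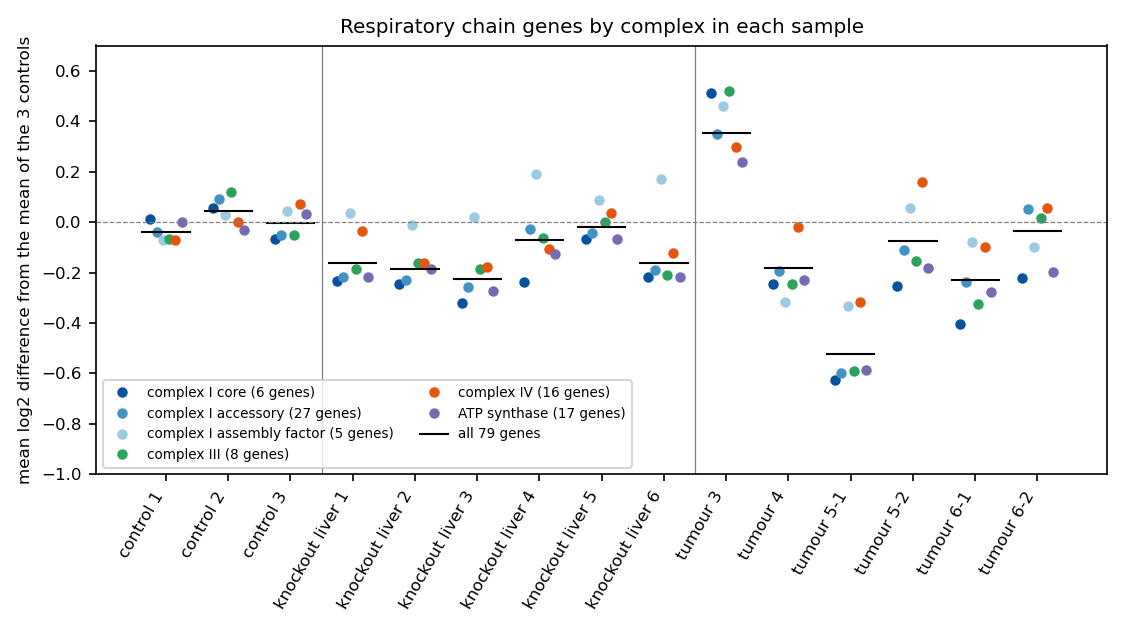
Mean log2 difference from the mean of the 3 controls (y axis) over the genes of each complex (coloured points) and over all 79 genes (black bars) in each of the 15 samples (x axis). Tumour 3 stands above 0 in every complex, from 0.24 to 0.52, and tumour 5-1 below 0 in every complex, from -0.62 to -0.32; the knockout livers lie between -0.32 and 0.19.

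Tumour 3 had the highest signal of the 6 tumours in 59 of the 79 members, against 19.2% of all genes. It lay above every control in 55 members (69.6%), where 33.0% of all genes did so. By complex, its mean difference from the controls was 0.51 for complex I core, 0.35 for accessory subunits, 0.46 for assembly factors, 0.52 for complex III, 0.30 for complex IV and 0.24 for ATP synthase. Here and for tumour 5-1 below, the mean of complex IV includes its genes close to background. Ndufv1, the core subunit that binds NADH and FMN, reached 2429 in tumour 3, against 1208 to 1264 in the controls and 830 to 1377 in the other tumours. Uqcrc2 reached 2978, against 979 to 1271 in the controls and 913 to 1655 in the other tumours. Cox5b, subunit 5b of cytochrome c oxidase, reached 10721, against 5003 to 5690 in the controls and 3236 to 5241 in the other tumours. Cox6b1, the main isoform of subunit 6b, was at 9843 in tumour 3 and at 7902 in tumour 4, both above the 4755 to 5532 of the controls. Ndufa2 was at 3535, against 906 to 1192 in the controls and 1120 to 1888 in the other tumours.

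Tumour 5-1 had the lowest signal of the tumours in 58 members, against 16.5% of all genes, and the highest in none. It lay below every control in 61 members (77.2%), where 31.4% of all genes and 67.0% of the bright genes did so. By complex, its mean difference was -0.62 for complex I core, -0.60 for accessory subunits, -0.33 for assembly factors, -0.59 for complex III, -0.32 for complex IV and -0.59 for ATP synthase. The bright genes as a whole were also lower in tumour 5-1, at -0.62 on average, and the members, at -0.52, were not below them. In tumour 3 the bright genes were at -0.16 and the members at 0.35. Ndufs7, the core subunit that holds the last iron-sulfur cluster, was at 739 in tumour 5-1, against 1162 to 1452 in the controls and 852 to 2167 in the other tumours. Ndufb9, a LYR-motif accessory subunit, was at 1574, against 3140 to 3851 in the controls and 2343 to 4727 in the other tumours. Ndufaf4, an assembly factor, was at 141, against 260 to 321 in the controls and 249 to 516 in the other tumours. The actin ratio of tumour 5-1 was the lowest of all samples, at 1.51, and that of tumour 3 was 1.78, within the range of the other tumours. Its part in these values was not tested.

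The signal was higher in tumour 3 than in tumour 5-1 in 74 of 79 members (93.7%), against 43.9% of all genes and 69.2% of the bright genes. The median difference was 1.98-fold for the members, 2.27-fold for complex I core, 2.21-fold for complex III, 1.84-fold for ATP synthase and 1.65-fold for complex IV. The value of complex IV includes Cox4i2, Cox6a2, Cox6b2, Cox7a1, Cox7c and Cox8c, which were not above the percentile on every array. These dim genes limit how far complex IV can be compared with the other complexes. In 44 members tumour 3 was the highest and tumour 5-1 the lowest of the 6 tumours (55.7%), against 5.27% of all genes and 17.2% of the bright genes. The other kept probe sets gave a like picture: 54 of 60 were higher in tumour 3, with a median log2 difference of 0.84. The dimmer probe sets of Cox5b had signals of 6281, 4874 and 2086 in tumour 3 and of 2485, 2042 and 1309 in tumour 5-1, while another, close to background, had 17.0 and 46.7.

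Some members departed from this order. The 5 genes higher in tumour 5-1 than in tumour 3 were Cox6b2, Ndufb1, Cox7c and Cox4i2, which were at most 49.3 in either, and Atp5g2, which was at 1442 in tumour 3 and 1497 in tumour 5-1. Tumour 3 lay below every control in 12 members, where 34.2% of all genes did so, among them Atp5md at 884, Atp5a1 at 2592, Cox4i1 at 3030, Atp5e at 1565 and Ndufa7 at 1561. Tumour 5-1 lay above every control in 4 members, where 39.5% of all genes did so: Ndufa2 at 1295, Ndufa4 at 3177, Cox8a at 1166 and the dim Cox4i2 at 49.3. Ndufa4, first described in complex I and now assigned to cytochrome c oxidase, had signals of 2736 to 3001 in the controls, 2496 to 3402 in the knockout livers and 2535 to 4107 in the tumours.

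**Figure D4:**
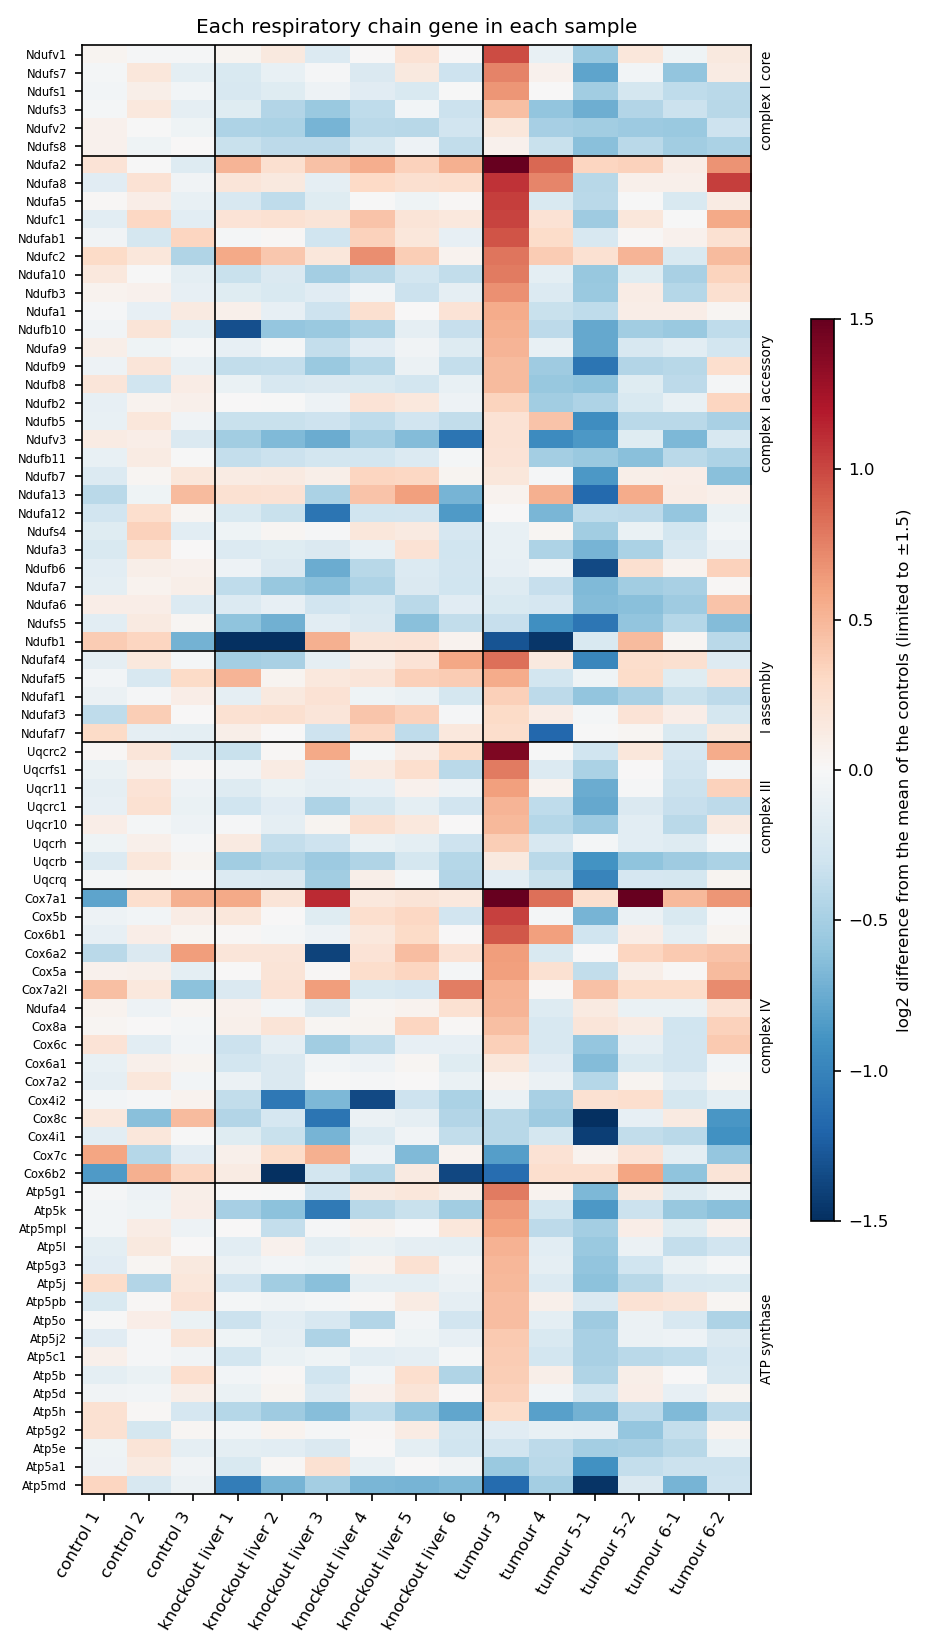
Log2 difference of each of the 79 genes (rows, grouped by complex and ordered within it by tumour 3) from the mean of the 3 controls in each sample (columns); red is higher and blue lower, with colours limited to ±1.5. The tumour 3 column is red in most rows and the tumour 5-1 column blue in most, while Atp5md is blue in all 6 knockout livers and all 6 tumours.

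Set beside the liver of the same mouse, tumour 3 was higher in 69 of 79 members (87.3%, against 46.4% of all genes), with a mean log2 difference of 0.58. Tumour 5-1 was higher than its liver in 8 members (10.1%, against 56.0% of all genes), with a mean of -0.50, and lower in all 17 ATP synthase genes. Tumour 5-2, from the same mouse as tumour 5-1, had a mean of -0.06 and was higher in 26 members. Tumours 6-1 and 6-2, which also share a mouse, had means of -0.07 and 0.13 and were higher in 24 and 46 members. Tumour 4 had a mean of -0.11. The 6 core subunits of complex I all lay above the liver of the same mouse in tumour 3 and all below it in tumours 5-1, 5-2 and 6-1.

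Cytochrome c oxidase has subunits with tissue isoforms, and the liver isoforms were above the percentile on all 15 arrays. Cox6a1 had signals of 5880 to 6703 in the controls, 5249 to 6472 in the knockout livers and 4066 to 7161 in the tumours. Cox7a2, the liver isoform of subunit 7a, had 4857 to 6024, 4602 to 5340 and 3981 to 5555, and Cox8a, the main isoform of subunit 8, had 1008 to 1047, 1043 to 1288 and 835 to 1408. In these 3 genes the groups overlapped, and the limma log2 changes in the 3 comparisons lay between -0.20 and 0.11. Cox5a, subunit 5a, spanned 2319 to 2719 in the controls and 1990 to 3954 in the tumours, and Cox6c, subunit 6c, 2796 to 3616 and 2094 to 4100. Cox7a2l, a relative of subunit 7a that joins complexes III and IV, varied among controls from 507 to 1074 and reached 1335 in knockout liver 6.

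The isoforms of other tissues gave low signals. Cox7a1, the heart and muscle isoform of subunit 7a, had signals of 4.4, 18.7 and 24.5 in the controls and of 111, 32.3, 18.7, 61.6, 23.6 and 27.8 in tumours 3, 4, 5-1, 5-2, 6-1 and 6-2. Its log2 change in tumours against controls, 1.03 ± 0.43, was not called (limma adjusted p = 0.16), and it was above the percentile of its array on 4 arrays only. Cox6a2, the heart and muscle isoform of subunit 6a, spanned 7.1 to 56.9 over all samples, Cox6b2, the testis isoform of subunit 6b, 1.7 to 39.3, and Cox8c, the testis isoform of subunit 8, 15.5 to 151. Cox8c, above the percentile on 14 arrays, had a log2 change of -0.67 ± 0.39 in tumours against controls, the lowest of complex IV and not called (limma adjusted p = 0.33). Of the muscle markers, Acta1, Myl1 and Myh4 did not pass the filter, and Ckm was at most 46.0 in any sample. Cox7c, subunit 7c, was measured only by a probe set at 33.8 or below, close to background.

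Subunit c of the ATP synthase rotor is encoded by 3 genes with the same mature protein, which gave different patterns. Atp5g1 had signals of 1546 to 1725 in the controls, 1326 to 1829 in the knockout livers and 1019 to 2802 in the tumours. Atp5g3 had 4399 to 5464, 4680 to 5809 and 3282 to 7000. Both were highest in tumour 3 and lowest in tumour 5-1. Atp5g2 had 1358 to 1903, 1345 to 1773 and 1082 to 1694, was lowest in tumour 5-2 and did not follow that order. The limma log2 changes of the 3 genes lay between -0.22 and 0.01 and none was called. Atp5pb, subunit b of the peripheral stalk, had the highest fitted value of ATP synthase in tumours against controls, at 0.13 ± 0.16.

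The 3 members on chromosome 8 were low in tumour 5-1, and 2 of them also in tumour 6-2. Low values in tumour 5-1 were not particular to chromosome 8, since 61 of the 79 members lay below every control there. Atp5md on chromosome 19 and Ndufb6 on chromosome 4 were at -1.47 and -1.35 on the log2 scale from the control mean in tumour 5-1. In tumour 6-2, 29 members lay below every control. Ndufb7, an accessory subunit on the intermembrane side, had signals of 596 in tumour 5-1 and 701 in tumour 6-2, against 1074 to 1227 in the other tumours and 944 to 1226 in the controls. Its second probe set had 265 and 396 in these tumours, against 524 to 650 in the other tumours and 717 to 816 in the controls. On that probe set every tumour lay below every control, unlike on the brighter one. Cox4i1 was at 1522 and 2161 in the same tumours, as given above. Ndufa13, also known as Grim19, was at 1244 in tumour 5-1, against 2906 to 4109 in the other tumours, and at 2941 in tumour 6-2. Ndufa13 also varied among non-tumorous samples, from 1723 to 4312.

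Other mitochondrial genes were described from 11 lists, of whose 141 genes 121 were tested. In knockout livers against controls 1 of the 121 was called higher and 1 lower, where 1.68% of all genes were called. Gpx4, a glutathione peroxidase that reduces lipid peroxides, rose by 0.96 ± 0.24 (limma adjusted p = 0.048), and Tomm70a, a receptor of the outer membrane import machinery, fell by 0.86 ± 0.21 (limma adjusted p = 0.049). In tumours against controls 3 of the 121 rose and 2 fell, where 6.87% of all genes were called. Gpx4 rose by 1.47 ± 0.24, and the citric acid cycle genes Idh2 (isocitrate dehydrogenase) and Ogdh (2-oxoglutarate dehydrogenase) rose by 0.76 ± 0.21 and 0.64 ± 0.18. Fmc1, an assembly factor of ATP synthase, fell by 1.09 ± 0.27 and Tomm70a by 0.73 ± 0.21. In tumours against knockout livers none of the 121 was called, where 0.136% of all genes were called. The median log2 changes of the 121 genes were -0.11, 0.03 and -0.04 in knockout livers against controls, tumours against knockout livers and tumours against controls.

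Tumours 3 and 5-1 also stood at opposite ends in several of these lists. The mean log2 difference from the controls was 0.55 in tumour 3 and -0.46 in tumour 5-1 for the 16 tested genes of the citric acid cycle. It was 0.37 and -0.86 for the 4 genes of complex II, which passes electrons from succinate to ubiquinone, and 0.51 and -0.95 for cytochrome c and cytochrome c1. For the 20 genes of cristae, prohibitins and import it was 0.40 and -0.35. The 12 nuclear regulators of respiratory genes lay the other way, at -0.19 in tumour 3 and 0.20 in tumour 5-1. These were not the ends of that list, since tumour 4 was at -0.24 and tumour 5-2 at 0.28. The 9 tested genes of transcription and upkeep of mitochondrial DNA differed little, at 0.01 in tumour 3 and -0.04 in tumour 5-1.

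Markers of the liver's cell types moved between samples as well. The summed signal of the 6 hepatocyte markers tested, of 8 listed, was 83417 to 90272 in the controls, 68887 to 87044 in the knockout livers and 63659 to 73072 in the tumours. That of 7 of 8 macrophage markers was 1730 to 1821 in the controls, 2516 to 4256 in the knockout livers and 881 to 5401 in the tumours, and that of all 8 stellate cell and myofibroblast markers 862 to 1203, 1642 to 4390 and 685 to 2781. The mean log2 difference of hepatocyte markers was -0.32 in tumour 3 and -0.43 in tumour 5-1, within the -0.46 to -0.27 of the tumours as a group. Macrophage markers had means of 0.89 and 0.20 in tumours 3 and 5-1 and summed signals of 3283 and 5401, so that mean and sum differ in their order. Endothelial markers were at 0.59 and -0.36 and bile duct markers at -0.66 and 0.22 in the same tumours. The macrophage marker Cd163 did not pass the filter. The part of cell composition in the members' values was not tested.

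**Figure D5:**
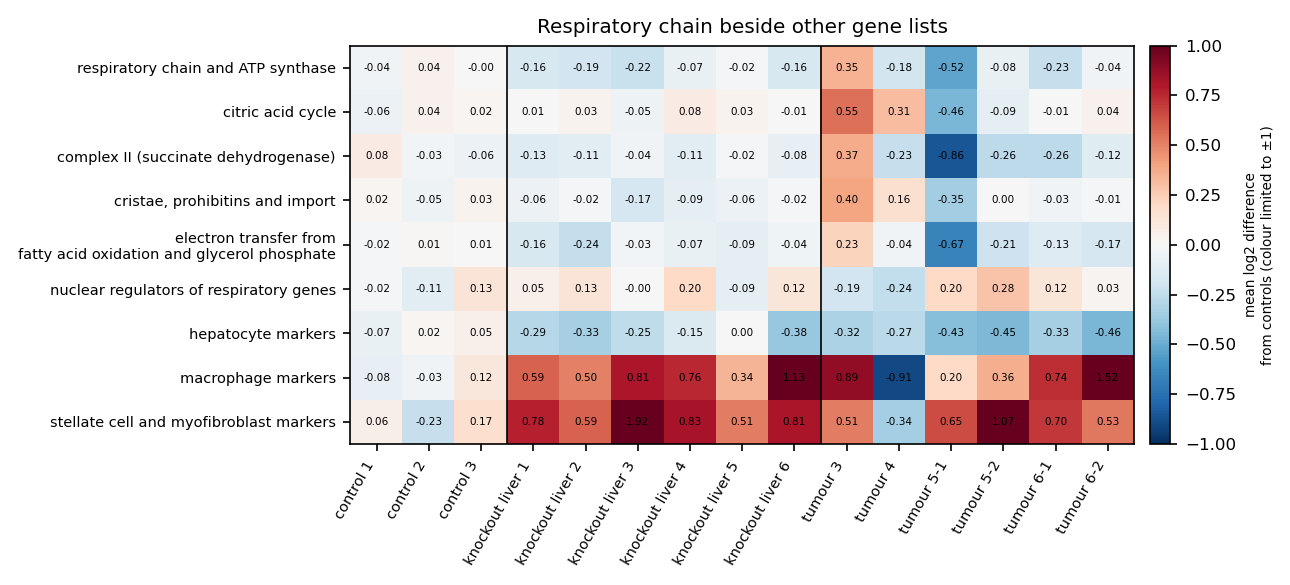
Mean log2 difference from the mean of the 3 controls for the 79 genes and for other gene lists (rows) in each sample (columns), printed in each cell, with colours limited to ±1. Tumour 3 is above 0 and tumour 5-1 below 0 in the first 5 rows, while hepatocyte markers are below 0 in both.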

How the data were processed

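Liver RNA was hybridised to Affymetrix arrays, 3 controls, 6 knockout livers and 6 tumours. The authors deposited intensities per probe set made with MAS5, per the submitters' processing notes; its settings are not given in the sources used here, and trimmed means lay between 150.0 and 150.5. From these, log2(signal + 9.1) was computed, 9.1 being the 20th percentile of all signals; this shrinks changes of dim genes. Of 22690 probe sets 64 were controls. Probe sets were named with the platform annotation (20380 with 1 gene, 691 with several, not used) and a RefSeq table of GRCm38.p6. Of all probe sets other than the controls, named or not, 16120 passed the filter (above the 40th percentile on at least 3 arrays). Each gene was represented by the brightest of its own probe sets that passed.

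All 15 arrays were fitted with limma 3.58.1 (statmod 1.5.0, R 4.3.3), lmFit with the animal as a random block (consensus correlation -0.02, so tumours of a mouse count nearly as separate animals) and eBayes with a trend. The pairing comes from the labels; residual correlations of a liver and a tumour of a mouse lay between -0.16 and 0.09. The p-values set a difference between groups against the spread between samples within groups, pooled over the groups. The fit was tested on simulated data with independent arrays and the same SD of a gene in all groups. The simulation therefore did not cover samples that share an animal or the larger spread of the tumours. Alternatives covered the constant, filter, normalization, probe set choice, block, samples, trend and actin covariate, and leaving out each array.

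The members, lists and tests were chosen with earlier results of these data known. Named were, per complex and comparison, called members or else those with the largest rise and fall, the isoforms of complex IV and subunit c, Ndufa4 and members on chromosome 8, and, of the other lists, the called genes with the largest changes. Ndufs7, Ndufb9, Ndufb11, Ndufa7, Atp5b, Atp5c1, Atp5d, Atp5e, Atp5h and Ogdh were singled out after their values were seen.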

Additional observations from a re-analysis of the deposited data

Results flagged for a closer look

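In 7 of 90 groups of 6 samples tested, a sample stood apart from the rest of its group by Dixon's criterion (gap over range above 0.625). The criterion is set for about 1 in 20 among independent groups that were not selected. These groups share arrays, and many named members were chosen by their values, so 7 of 90 cannot be set against that rate. Ndufv2 was 2178.6 in tumour 3, with the next tumour at 1558. Ndufaf1 was 186.6 in tumour 3, with the next at 112. The mean log2 difference of the complex I core subunits was 0.51 in tumour 3, with the next tumour at -0.22. Ndufa13 was 1243.8 in tumour 5-1, with the next at 2906. Atp5md was 960.7 in knockout liver 1, with the next at 1215. In knockout liver 3 the dim isoforms Cox6a2 and Cox8c were 7.1 and 45.3, with the next livers at 39.1 and 76.2.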

How the results depend on the processing

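In knockout livers against controls, the number of called members went from 0 to 8 with only the 2 groups fitted, where 10.4% of all genes were called. It went to 5 with tumours 3 and 5-1 both left out, an alternative chosen after seeing the data, where 4.48% of all genes were called. No single array left out gave a call. In tumours against controls, the number went from 1 to 0 with no filter and with only the 2 groups fitted. It was also 0 without the eBayes trend and with the actin ratio as a covariate. With tumours 3 and 5-1 left out it was 6. The share of all genes called in that fit is not given here, so these 6 cannot be set against a general rate. Leaving out each array gave 0 to 6, with 6 reached without tumour 3, where 7.89% of all genes were called. Without tumour 5-2 or 6-2 the call was Atp5md in place of Ndufs5. The fits with only the 2 groups or with arrays left out used fewer samples; the cause of these moves was not tested. In tumours against knockout livers the count was 0 in every alternative. Without the replicate block the medians were -0.12, 0.00 and -0.15, and with the animal as a fixed replicate block the median of tumours against knockout livers was 0.04 with 0 called; neither changed a call of a member. With each array left out, the medians lay between -0.15 and -0.10, -0.09 and 0.10, and -0.22 and -0.06 in knockout livers against controls, tumours against knockout livers and tumours against controls. No named member reversed a called direction. Signal over background limits Cox7c, Cox6b2, Cox7a1 and Ndufb1.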
